A study of Drosophila melanogaster with 15 samples.

Results

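Transcripts of 5 DNA-binding proteins that open chromatin or prepare the genome for transcription in the early fly embryo were measured with 6 Affymetrix probe sets, out of 18952 on the array. The genes were zld, Trl, Clamp, grh and psq, 5 of the 11982 named by a probe set with a single symbol, and a probe set was taken when the array's annotation gave it one of these as its single gene symbol. The probe sets were 1638370_s_at for zld, 1635305_s_at for Trl, 1629663_at for Clamp, 1639136_s_at for psq, and 1634573_a_at and 1635106_at for grh. Another 2 probe sets carry Trl together with a second symbol and were left out. All 6 passed the filter on dim probe sets, which kept 11261 probe sets for testing. The annotation names no genome build for these files, so no coordinates are given.

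Zelda, the product of zld, is a zinc finger protein that marks early enhancers before the zygotic genome is switched on. GAGA factor (from Trl), CLAMP and Pipsqueak (from psq) all bind GA-rich repeats: GAGA factor keeps promoters free of nucleosomes, CLAMP recruits the dosage compensation complex to the male X chromosome and acts at histone genes, and Pipsqueak has been linked to Polycomb silencing. Grainyhead, from grh, opens enhancers of epithelial genes, and its zygotic transcripts belong mainly to the later epidermis and nervous system. Mothers load transcripts of several such factors into the egg, so the level in an embryo of this age mixes maternal and zygotic RNA.

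The arrays measured pooled Drosophila melanogaster embryos of the white-eyed laboratory strain w[1118], aged 3-4 hours and kept at 23 °C, in a study of the response to low-dose gamma rays. Of the 15 arrays, 3 were unirradiated controls, and 3 each came from embryos that had received 500 µGy at 22.4 mGy/h 5, 30, 60 or 90 min before freezing. All groups were frozen at the same age, so a longer time after irradiation also meant a younger age at irradiation, and the 2 cannot be told apart. Replicates are biological per the labels and carry the letters A, B and C. There is 1 array per replicate, each from a pool of embryos, and no separation by sex is given. In such pools, fewer cells of a type and less RNA per cell cannot be told apart.

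Cellular blastoderm and gastrulation markers were present on nearly all arrays: all 11 listed genes passed the filter, and 10 of them, among them twi at 842.8 to 3409 and Kr at 131.8 to 2666, were above the array's median intensity on all 15 arrays (nullo on 14). Of 8 blood cell markers 6 passed it: srp (82.4 to 1822), gcm (53.5 to 996.4), vkg (139 to 1444) and Col4a1 (141.8 to 1098) were above the array median on all 15 arrays, Pxn on 13 and NimC1 on 2. Hml (2.60 to 38.03) and He (0.757 to 27.8) did not pass. Hybridization spike-in controls, RNAs added in fixed amounts, lay at 10.81 to 10.92 (mean log2 intensity) on the A arrays, 10.72 to 11.54 on the B arrays and 11.36 to 11.74 on the C arrays. Within letter B, 60 min B (11.54) and 90 min B (11.52) lay among the C arrays. Control C stood apart for several of the 6 probe sets, as described gene by gene below, and the values without it are given beside the results it moves most.

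zld gave intensities of 3960, 7765 and 1228 in controls A, B and C. In the same order of letters, the 5 min arrays gave 3038, 6913 and 2457, the 30 min arrays 7259, 8902 and 3281, the 60 min arrays 8093, 8160 and 3213 and the 90 min arrays 6954, 3042 and 4856. Control C was the lowest of all 15 arrays, and the B arrays other than 90 min B were all at 6913 or more. On the log2 scale the group means were 11.71 ± 1.35 (SD, n = 3) in controls, 11.86 ± 0.79 at 5 min, 12.54 ± 0.76 at 30 min, 12.54 ± 0.77 at 60 min and 12.19 ± 0.60 at 90 min. No neighbours in the order control, 5, 90, 30 and 60 min differed by more than the spread within groups. The mean of the irradiated groups exceeded the controls by 0.57 ± 0.51 (SE), with a 95% interval from -0.53 to 1.67 and an adjusted p of 0.978 in limma. Without control C the difference was -0.15 (adjusted p = 0.931).

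Of the 2 grh probe sets, the brighter (1634573_a_at) read 428, 987 and 26.0 in controls A, B and C. The 5 min arrays had 551, 1120 and 168, the 30 min arrays 480, 1523 and 249, the 60 min arrays 836, 780 and 332 and the 90 min arrays 557, 274 and 309. Control C lay far below every other array, the next lowest being 5 min C. The dimmer probe set (1635106_at) gave 65.5, 91.2 and 4.63 in the controls. It gave 66.2, 57.1 and 42.4 after 5 min, 112, 98.5 and 51.1 after 30 min, 121, 82.2 and 37.0 after 60 min and 134, 23.6 and 44.2 after 90 min. Both therefore had their lowest array in control C and a low array in 90 min B. The group means of the brighter one were 7.82 ± 2.72 (SD, n = 3) in controls, then 8.88 ± 1.38, 9.15 ± 1.32, 9.23 ± 0.74 and 8.501 ± 0.547 at 5, 30, 60 and 90 min, and those of the dimmer one were 5.03 ± 2.21, 5.79 ± 0.32, 6.39 ± 0.60, 6.19 ± 0.86 and 5.73 ± 1.24. For both, the step from controls to the next group was within the control SD. The irradiated mean exceeded the controls by 1.12 ± 0.88 (SE) for the brighter and 0.998 ± 0.737 for the dimmer probe set, with 95% intervals from -0.76 to 3.01 and from -0.59 to 2.58 and an adjusted p of 0.978 for each. Without control C these were -0.41 (adjusted p = 0.873) and -0.27 (0.901).

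Trl had intensities of 731, 963 and 370 in controls A, B and C. After irradiation it measured 936, 987 and 548 (5 min), 815, 918 and 751 (30 min), 982, 1189 and 763 (60 min) and 914, 824 and 1202 (90 min). Control C was again the lowest array, and 90 min C was the highest of all 15. The group means were 9.32 ± 0.71 (SD, n = 3), 9.64 ± 0.47, 9.69 ± 0.15, 9.91 ± 0.32 and 9.92 ± 0.28 on the log2 scale, in order of time, each within the SD of its neighbours or of the controls. The irradiated mean was 0.47 ± 0.30 (SE) above the controls (95% interval -0.18 to 1.12, adjusted p = 0.978), and 0.08 above without control C (adjusted p = 0.944).

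For Clamp, controls A, B and C read 4991, 6081 and 11327. The 5 min arrays read 6361, 4716 and 10570, the 30 min arrays 6687, 4550 and 9822, the 60 min arrays 6488, 5626 and 9370 and the 90 min arrays 6528, 7816 and 9540. The 5 C arrays were the 5 highest, with control C at the top, as for 12.1% of the probe sets tested. The group means were 12.77 ± 0.62 (SD, n = 3), 12.74 ± 0.59, 12.71 ± 0.56, 12.77 ± 0.38 and 12.94 ± 0.27 in order of time. The irradiated mean differed from the controls by 0.01 ± 0.30 (SE), with a 95% interval from -0.64 to 0.67 and an adjusted p of 0.9996; it was 0.36 without control C and -0.23 without control A.

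psq read 3001, 3456 and 1801 in controls A, B and C. The 5 min arrays read 2243, 2489 and 2003, those of 30 min 3534, 1797 and 2219, those of 60 min 3181, 2778 and 1919 and those of 90 min 3195, 1974 and 2475. Its whole range over the 15 arrays was 1.97-fold, the smallest of the 6 probe sets, against 2.49-fold for Clamp, 3.25-fold for Trl and 7.25-fold for zld. The group means were 11.37 ± 0.49 (SD, n = 3), 11.13 ± 0.16, 11.24 ± 0.50, 11.33 ± 0.38 and 11.29 ± 0.35. The irradiated mean was -0.13 ± 0.27 (SE) from the controls (95% interval -0.70 to 0.45, adjusted p = 0.985). It was -0.41 without control C and 0.06 without control B, and neither passed.

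**Figure D1:**
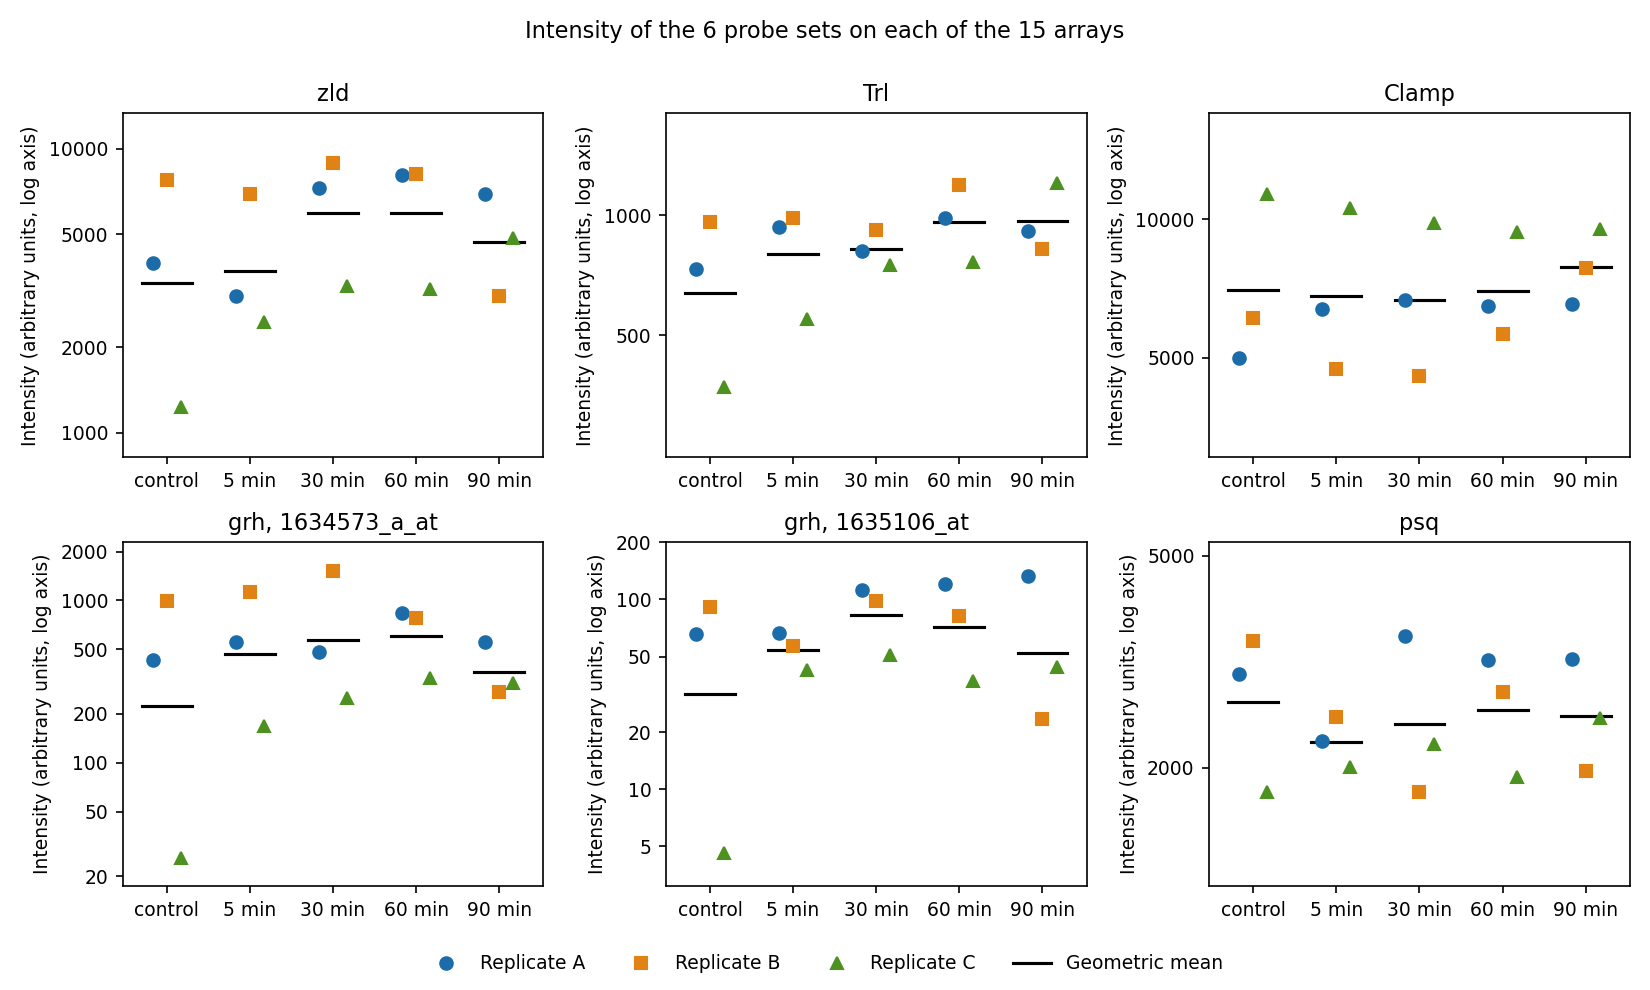
Intensity (arbitrary units, log axis) of each probe set in the control group and at 5, 30, 60 and 90 min after irradiation; each marker is 1 array, its colour and shape give the replicate letter, and the black line is the geometric mean of 3 arrays. Control C is the lowest of the 15 arrays for zld (1228), Trl (370) and both grh probe sets (26.0 and 4.63) and the highest for Clamp (11327).

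None of the 6 probe sets passed the test of irradiated against control embryos. The comparison with controls called 0 of 6 at 5, 30, 60 and 90 min and 0 of 6 in the mean of the irradiated groups, in the slope over the 4 times and in the F test over all 5 groups. In each of these comparisons limma called 0 of 11261 probe sets, a background of 0%, while 296 (2.63%), 165 (1.47%), 278 (2.47%) and 180 (1.6%) probe sets had an unadjusted p under 0.05 at 5, 30, 60 and 90 min, 404 (3.59%) in the mean, 150 (1.33%) in the slope and 94 (0.835%) in the F test. The smallest unadjusted p of the 6 over the 4 times and the mean was 0.14, that of Trl at 90 min. The 4 times share the same 3 control arrays. A fit that added the replicate letter as a block again called 0 of 6 and 0 of 11261, but its unadjusted p was under 0.05 for more probe sets: 11.1%, 6.75%, 11.4% and 9.54% at 5, 30, 60 and 90 min, 14.4% in the mean and 4.22% in the slope. In the block fit the smallest adjusted p of the 6 in the mean of the irradiated groups was 0.394, that of the brighter grh probe set. The 95% intervals of the irradiated mean still leave room for sizeable differences. In the fit by group alone they reached 1.67 for zld and 3.01 for the brighter grh probe set, and in the block fit 1.34 and 2.37.

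Set against the control of the same letter, the irradiated arrays differed between letters in direction, or for Trl in size only. The 4 irradiated arrays of a letter share 1 control. For zld the 4 irradiated arrays differed from their control by 0.58 within letter A, -0.31 within B and 1.45 within C, and 9 of 12 arrays were above their control. For the brighter grh probe set the differences were 0.47, -0.35 and 3.25 (10 of 12 above), and for the dimmer 0.67, -0.65 and 2.98 (9 of 12). Trl gave 0.32, 0.01 and 1.08 (10 of 12), Clamp 0.38, -0.13 and -0.21 (5 of 12) and psq 0.00, -0.63 and 0.25 (7 of 12). For zld, Trl and grh the difference was thus largest within letter C, where the control had the lowest value of all arrays; control C was the lowest of the 15 arrays for 16.1% of the 11261 probe sets. Control C also had the lowest score for the late embryo markers (-1.30) and the blood cell markers (-1.91), as the mean of gene-centred log2 values over the 5 and 6 genes that passed the filter; their part in the result was not tested.

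**Figure D2:**
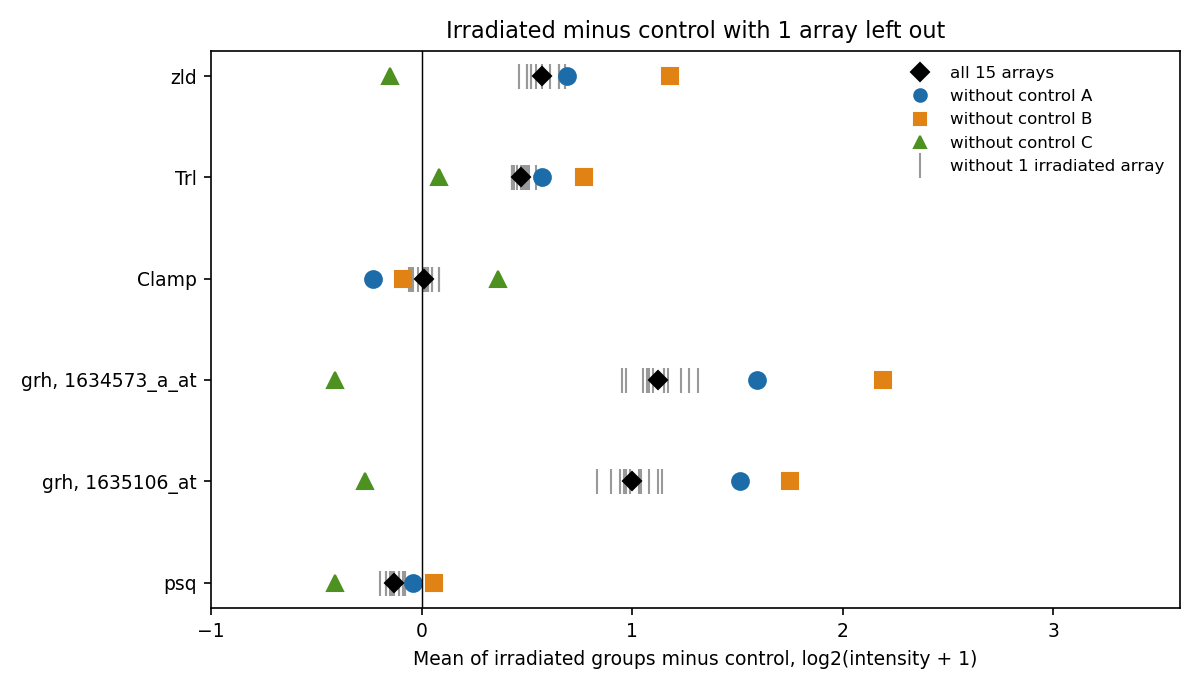
Mean of the irradiated groups minus control, in log2(intensity + 1), for each probe set with all 15 arrays (black diamond), without each control array (coloured markers) and without each irradiated array (grey ticks). Leaving out control C moved zld from 0.57 to -0.15 and the brighter grh probe set from 1.12 to -0.41, while each other array left both positive.

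The arrays also differed by replicate letter. The letter took 78.2% of the sum of squares of Clamp, 52.7% and 41.0% of the brighter and dimmer grh probe sets, 45.3% of zld, 42.9% of psq and 27.9% of Trl, beside a median of 44.8% over the probe sets tested. The 5 groups took between 3.83% (Clamp) and 28.0% (Trl), beside a median of 16.3% over the probe sets tested. In a fit with group and letter together, Clamp was higher in the C arrays, and zld, both grh probe sets and psq were lower in the C than in the A arrays. That is 5 of 6 probe sets called, where limma called 45.6% of all probe sets (20.8% higher, 24.8% lower) of 11261. A letter difference was thus common among all transcripts and not particular to these genes. Trl at -0.37 ± 0.23 (SE) did not pass (adjusted p = 0.229), though it did without 90 min C, its highest array (-0.60, adjusted p = 0.0306). C against B called 3 of 6 (28.4% of all, 12% higher and 16.4% lower), and B against A called 0 of 6 (14.7% of all, and 31.5% with an unadjusted p under 0.05), with unadjusted p between 0.148 and 0.525 for the 6.

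Clamp showed the tightest letter difference. Its 5 C arrays lay between 9370 and 11327, the A arrays between 4991 and 6687 and the B arrays between 4550 and 7816. All C arrays were above all A arrays, as for 17.4% of probe sets, and above all B arrays, as for 3.46%. The fitted difference was 0.71 ± 0.15 (SE) from A, a 1.64-fold higher level (adjusted p = 0.00191), and 0.84 ± 0.15 from B, 1.79-fold (adjusted p = 0.00915). C exceeded A in all 5 groups, by 1.18 in controls and by 0.53 to 0.73 after irradiation. Both calls held whichever array was left out, with an adjusted p no higher than 0.0095 against A and 0.0433 against B.

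grh lay on the other side. The brighter probe set ranged from 26.0 to 332 in the C arrays, from 428 to 836 in A and from 274 to 1523 in B, so that C and A did not overlap, as for 21.4% of probe sets in that direction. It was 3.40-fold lower in C than in A (-1.76 ± 0.56 (SE), adjusted p = 0.0212) and 4.98-fold lower in C than in B (-2.32 ± 0.56, adjusted p = 0.0127). The dimmer probe set ranged from 4.63 to 51.1 in C against 65.5 to 134 in A, with a fitted difference of -1.71 ± 0.56 (adjusted p = 0.0242). On control C and 60 min C it was below the array's median intensity (32.62 and 42.15), as was the brighter one on control C, so the sizes of these differences rest partly on values near background. Against B the dimmer one differed by -1.13 ± 0.56 (adjusted p = 0.154). Without control C the differences from A were -1.13 (adjusted p = 0.0557) and -1.12 (0.0682), a loss of both calls. Against A both calls were also lost without control A, 60 min A or 90 min A, the brighter one's without 5 min C and the dimmer one's without 60 min C. The difference of the brighter one from B without control C was -1.68 (0.0400).

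zld was lower in the C arrays (1228 to 4856, median 3213) than in A (3038 to 8093, median 6954) and B (3042 to 8902, median 7765), and the ranges overlapped: control A, 5 min A and 90 min B lay below the highest C array, 90 min C. The fitted difference was -0.998 ± 0.348 (SE) from A, 1.997-fold lower (adjusted p = 0.0324), and -1.25 ± 0.35 from B, 2.38-fold lower (adjusted p = 0.0197). C was below A in all 5 groups, by 0.31 to 1.69 in size. Without control C the differences were -0.74 (adjusted p = 0.112) and -0.99 (0.0721). The call against A was also lost without control A, 5 min C, 30 min A, 30 min C, 60 min A, 60 min C or 90 min A, each left out alone, and the call against B without control B, 5 min B, 30 min B, 30 min C or 60 min C. psq differed by -0.53 ± 0.20 (SE) between C and A (1.45-fold lower, adjusted p = 0.0407), and this call was lost in 9 of 15 cases with 1 array left out. It held without control B, 5 min A, 5 min B, 30 min B, 90 min B or 90 min C.

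**Figure D3:**
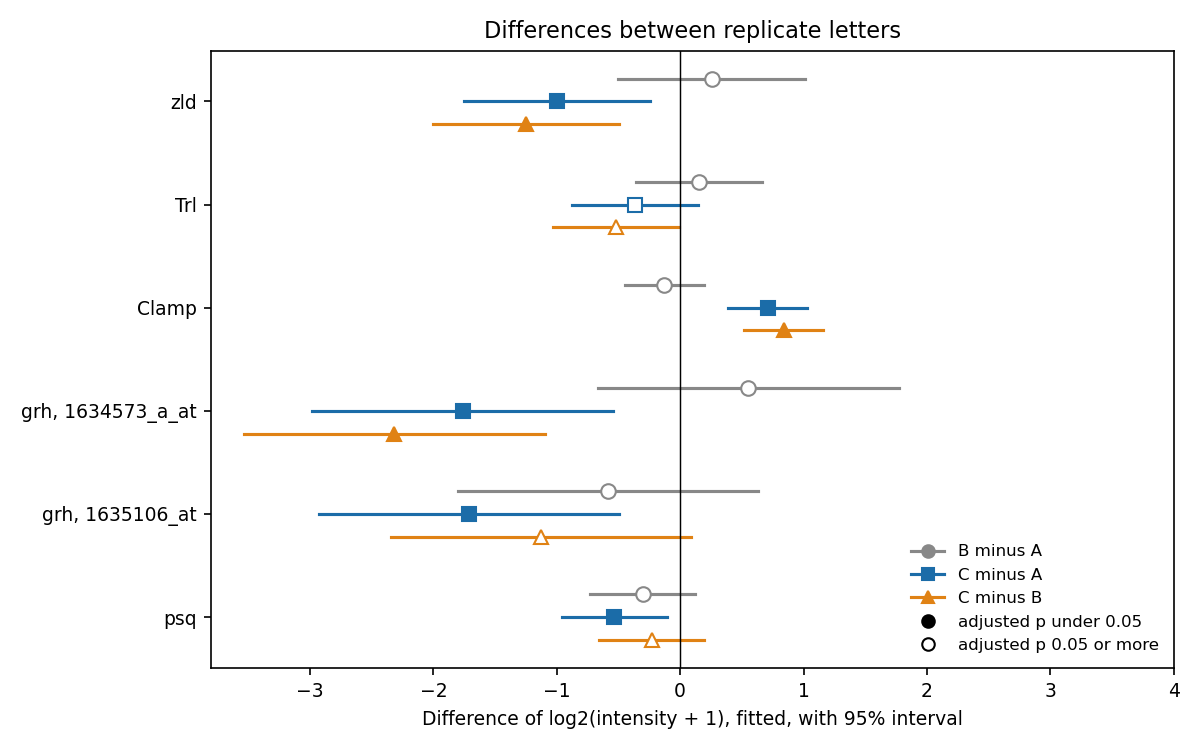
Fitted differences in log2(intensity + 1) between replicate letters, B minus A, C minus A and C minus B, for the 6 probe sets, with 95% intervals; filled markers have an adjusted p under 0.05. Clamp lies above 0 and zld and the brighter grh probe set below 0 in both comparisons with letter C.

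The spike-in levels of the A and C arrays did not overlap, so letter C and the higher spike-in level cannot be told apart against A. With the spike-in level as a covariate, 96 probe sets and none of the 6 were called between C and A, and 0 between C and B. In the same fit zld stood at 0.88 and the brighter grh probe set at 1.25 between C and A, on the other side of 0 (adjusted p = 0.429 and 0.509). Clamp stood at 0.36 (adjusted p = 0.657). As a measure of RNA integrity, the log2 signal at the 3′ end minus that at the 5′ end of the control transcript for eIF-4a was 0.98 to 1.34 in A, 0.95 to 1.33 in B and 1.20 to 1.40 in C, that for actin 0.40 to 0.51, 0.05 to 0.49 and -0.17 to 0.37, and that for GAPDH 0.78 to 1.10, 0.54 to 1.20 and 0.63 to 1.12. For 18S rRNA it was -1.60 to 0.66 in A, -1.22 to -0.25 in B and -1.71 to -0.32 in C, and control A at 0.66 was the highest of the 15 arrays, the other A arrays being at -0.61 or less. Summed intensities of the blastoderm and gastrulation markers ran from 22621 to 37139 in A, 12481 to 34303 in B and 13700 to 19779 in C. In these sums slam alone gave 654.2 to 18130 over all arrays. The sums of the maternal transcripts, all of whose 11 genes on the array passed the filter, ran from 23290 to 45365, 13147 to 29987 and 19316 to 42729. Pole cell markers summed to 21904 to 30220 in A, 19031 to 23344 in B and 19304 to 30184 in C, of which CycB alone gave 12800 to 21720 over all arrays. Gene by gene, C against A called 8 of 11 blastoderm and gastrulation markers lower and none higher (median -1.49), 6 of 8 pole cell markers lower and none higher (-1.35), 4 of 11 maternal transcripts lower and 1 higher (-0.39), 1 of 6 blood cell markers lower (-0.22) and 1 of 5 late embryo markers lower (-0.05). Their part in the letter differences was not tested.

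90 min B lay within the range of the C arrays for zld and both grh probe sets. Its zld value of 3042 was the lowest of the B arrays, the next being 6913. Its grh values of 274 and 23.6 were also the lowest of the B arrays. Its Clamp value of 7816 was the highest of the B arrays but below every C array, the lowest of which was 9370. 60 min B, with a spike-in level as high, had zld at 8160, the brighter grh probe set at 780 and Clamp at 5626; its zld and Clamp values lay within the range of the control, 5 min and 30 min B arrays, and its grh value below it. Without 60 min B and 90 min B, an alternative chosen after the data were seen, C against B called 5 of 6 probe sets in place of 3, and 4825 probe sets in all in place of 3195.

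Lists of genes that work with these factors or depend on them were compared between C and A, the pair of letters with most calls. With the spike-in level as a covariate every list count given below became 0, and the marker lists above moved in the same contrast. Of 8636 genes tested with 1 probe set each, 1941 were higher and 2222 lower in C, with a median difference of 0.02. Partners of GAGA factor were mostly on the lower side: of 10 tested out of 11 listed, 6 were lower and 1 higher, with a median of -0.74. lolal, a BTB protein that binds GAGA factor, was lower by 2.90 on the log2 scale (-2.90 ± 0.48 (SE)), and Iswi, the ATPase of the NURF remodeller, was at -2.05 ± 0.36. Of the other NURF subunits E(bx) was at -1.55 ± 0.36 and Nurf-38 at 1.01 ± 0.21, so that called members of the same complex moved in opposite directions. corto (-1.29), dre4, a FACT subunit (-0.88), and lola (-0.59) were also lower. Caf1-55, likewise a NURF subunit (-0.31), mod(mdg4) (-0.31) and Ssrp, the other FACT subunit (-0.07), did not pass.

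Of 7 CLAMP-linked genes 3 were lower, none higher, and the median was -0.22. msl-1, the scaffold of the dosage compensation complex, was at -3.34 ± 0.46 (SE), and the histone locus body genes mxc and mute were at -1.52 ± 0.29 and -1.10 ± 0.21. The other complex members msl-2 (0.09), msl-3 (-0.22), mle (-0.09) and mof (0.24) did not pass. Among 12 insulator and promoter architecture factors 5 were lower and 5 higher (median -0.45). Cp190, a cofactor shared by insulators, was at -3.87 ± 0.50, followed by ZIPIC (-1.57), Dref (-1.54), pita (-1.30) and Ibf1 (-1.10). dwg (1.31 ± 0.28), su(Hw) (0.93 ± 0.17), BEAF-32 (0.72), Ibf2 (0.59) and M1BP (0.53) were higher.

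The other activators and coactivators had the lowest median, -1.60, with 8 of 11 tested genes lower and none higher. Lower were both subunits of the elongation kinase P-TEFb, CycT (-3.14 ± 0.31 (SE)) and Cdk9 (-1.60), the JAK/STAT factor Stat92E (-2.98 ± 0.43), the remodeller ATPase brm (-2.32), the late pioneer factor opa (-2.23) and the histone acetyltransferase nej (-1.65). Also lower were smg (-1.43), an RNA-binding protein and not itself a transcriptional activator, and bcd (-0.52), both of which are also among the maternal markers. gro, a corepressor, was at 0.09 and did not pass, nor did osa (-0.57) and da (-0.24).

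Early genes that Zelda activates were split, with 3 higher and 4 lower of 12 tested out of 17 listed (median -0.51); zen, slam and nullo are also among the blastoderm markers. The count of higher genes was 0 without 30 min C and 1 without control A, 5 min C or 60 min A. Higher were the BMP modulator tsg (1.59 ± 0.46 (SE)) and the cellularization genes bnk (1.39 ± 0.48) and Sry-alpha (1.29); lower were sc (-2.08 ± 0.44), the dorsal selector zen (-1.89 ± 0.46), the BMP ligand dpp (-1.88) and halo (-1.73). Of 7 tested epidermal targets of Grainyhead, out of 10 listed, 2 were lower, knk, a chitin-organizing protein (-1.70 ± 0.62), and shg, E-cadherin (-1.63 ± 0.34), and none was higher; the median was -0.76. The other 5 ranged from -0.78 (serp) to 0.23 (kkv). The count of lower genes ran from 1, as without control A or control C, to 4 without 30 min A.

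**Figure D4:**
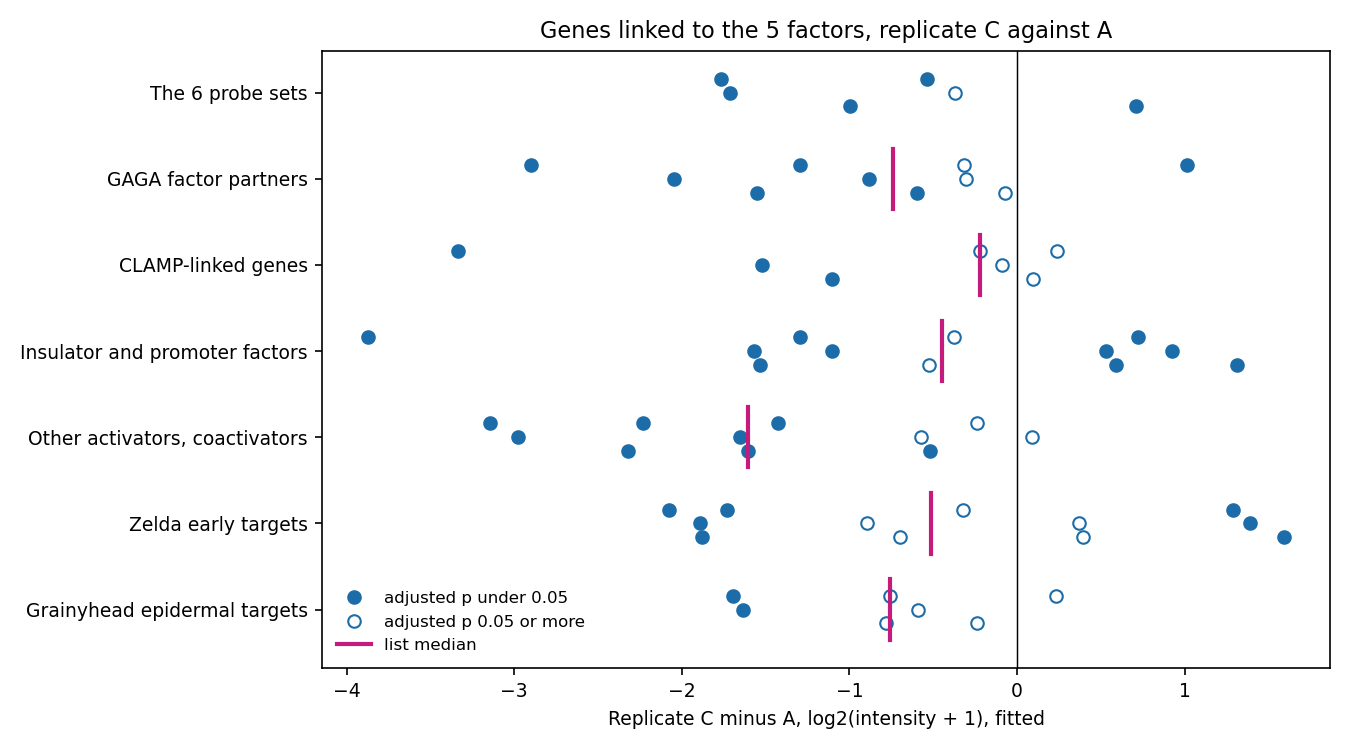
Fitted difference between replicate letters C and A, in log2(intensity + 1), for the 6 probe sets and for each tested gene of 6 lists linked to the factors; filled points have an adjusted p under 0.05 and the bar is the list median. Most called genes of the GAGA factor, CLAMP and coactivator lists lie below 0, and the insulator and Zelda target lists hold called genes on both sides.

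Irradiation gave 0 called genes in each of these lists. In the mean of the irradiated groups the list medians were -0.16 for the GAGA factor partners, -0.40 for the CLAMP-linked genes, 0.07 for the insulator factors, -0.26 for the other activators, -0.27 for the early Zelda targets and 0.46 for the Grainyhead targets, beside 0.03 over all 8636 genes. Several of these medians moved with single arrays: without control C they were -0.12 for the Grainyhead targets, -0.84 for the other activators, -0.51 for the GAGA factor partners, -0.58 for the Zelda targets and -0.17 for the insulator factors. The highest values with 1 array left out were 1.19 for the Grainyhead targets and 0.05 for the GAGA factor partners (both without control A), 0.08 for the other activators and 0.22 for the insulator factors (both without control B) and 0 for the Zelda targets (without 30 min B), while the CLAMP-linked median stayed between -0.46 and -0.10. In the same contrast no marker was called, and the maternal transcripts had a median of -1.18 (1 of 11 above 0), pole cell markers -0.51 (0 of 8), blood cell markers 0.70 (6 of 6), late embryo markers 0.05 (4 of 5) and blastoderm markers -0.05 (5 of 11). Of all genes tested 53.1% were above 0. Single controls held the extremes: control A had the highest maternal score of all arrays (1.55) and control C the lowest blood cell score (-1.91). The part of these markers in the list medians was not tested. The values furthest from 0 were nullo (-1.33 ± 1.21 (SE)) and scw (-0.67) among the early Zelda targets, CycT (-0.85) and Stat92E (-0.51) among the activators, CTCF (-0.63 ± 0.34) and Cp190 (-0.49) among the insulator factors, msl-1 (-0.60) and mute (-0.53) among the CLAMP-linked genes and E(bx) (-0.59) and Ssrp (-0.32) among the GAGA factor partners. On the other side were kkv, a chitin synthase (1.07 ± 0.52), and verm (0.96) among the Grainyhead targets, whose lowest was knk (-0.27), gro (0.70 ± 0.36) and opa (0.59) among the activators, Chro (0.55) and Ibf2 (0.38) among the insulator factors, mle (0.51) and msl-2 (0.45), tld (0.39) and dpp (0.33), and mod(mdg4) (0.19) and corto (0.16). None of these passed; the lowest adjusted p among them was 0.978.

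The genes whose log2 values followed a factor most closely over the 15 arrays, by Pearson's r, are given as a description, since the arrays share letters and spike-in levels. For zld they were sbb (0.957), Gug (0.955) and osa (0.947), and for grh nkd (0.987), Galphas (0.977) and l(3)neo38 (0.976). Clamp was followed by Ptpmeg2 (0.982), CG6005 (0.982) and CG9967 (0.980), Trl by CG15715 (0.964), CG33217 (0.952) and Dbp80 (0.951), and psq by DAAM (0.961), wcy (0.935) and l(3)05822 (0.934). After the group means were subtracted, nkd (0.986) still led for grh, and the first names were CG33232 (0.971) for zld, fbl (0.994) for Clamp, CG2691 (0.973) for Trl and wcy (0.971) for psq. The next names in that second ranking were CG31550 (0.970) and corto (0.969) for zld, ci (0.980) and Galphas (0.979) for grh, CG6005 (0.992) and Atox1 (0.988) for Clamp, CG15715 (0.967) and Arl6IP1 (0.962) for Trl, and DAAM (0.968) and lola (0.966) for psq.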

How the data were processed

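Biotin-labelled cRNA from total RNA was hybridized to 1 array per sample. The authors deposited an intensity value per probe set on a linear scale, which MAS5 produced, per the submitters' processing notes that name no version. Each column had a trimmed mean (2% off each end) of 500.01 to 500.02, and this scaling was not altered. Detection calls were not used here. Dim probe sets are noisy in MAS5, and the number of arrays limits the precision.

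In the platform annotation 13647 probe sets carry 1 gene symbol, 402 carry several and 4903 carry none; 13544 symbols were looked up by Entrez identifier in RefSeq's gene table and 0 changed. Values were transformed as log2(intensity + 1), a scale on which fold changes come out too small for dim probe sets. After removal of 183 Affymetrix controls, the filter dropped probe sets whose mean log2 fell under the 40th percentile. limma 3.58.1 (R 4.3.3) was run with a trended prior (lmFit, then eBayes) on all 15 arrays, by group, or by group and replicate letter for differences between letters. Tests were two-sided, or moderated F tests, with Benjamini-Hochberg adjustment over all 11261 probe sets and a threshold of 0.05. The scripts were tested on simulated data.

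Whether letters pair the arrays was checked from the correlation of same-letter deviations from the group means. Against control, letters A, B and C gave 0.465, 0.402 and 0.665 for 5 min, 0.217, 0.375 and 0.629 for 30 min, 0.484, 0.266 and 0.607 for 60 min and 0.501, -0.299 and 0.311 for 90 min. The correlation with the same-letter control was thus above 0 for every irradiated array except 90 min B. The replicate block was an alternative, as were a random block, quantile normalization, no filter, a pseudocount of 16, no intensity trend, the spike-in level (mean of 18 probe sets) as a covariate and leaving out each array.

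The factors, gene lists and comparisons were chosen with earlier results of these data known. Named genes were the 6 probe sets, for each list up to 2 genes furthest from 0 on either side in C against A and in the irradiated mean plus all that passed, and the 3 most correlated genes per factor; for the other genes of a list that are named, the choice followed their values. Promoter motifs were not analysed here. List genes were read from the probe set with the highest mean.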

Additional observations from a re-analysis of the deposited data

Results flagged for a closer look

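Within each letter's 5 arrays, the gap of the lowest or highest array to its nearest neighbour was set against the whole range. Of 18 sets of 5, 4 sets exceeded Dixon's 95% critical value of 0.71. These were control C for both grh probe sets (26.0 and 4.63, ratios 0.729 and 0.858), 90 min B for zld (3042, ratio 0.764) and control A for Clamp (4991, the lowest A array, ratio 0.829). The sets share arrays, each mixes the 5 groups, and the share flagged over all probe sets is not given here. The count is therefore a description and not a sign of more outliers among these genes. Control C was the lowest of the 15 arrays for 16.1% of the probe sets tested. The groups of 3 arrays were not tested this way.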

How the results depend on the processing

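In the mean of the irradiated groups none of the 6 probe sets was called under any alternative. The replicate block left 0 probe sets called and changed no call; with quantile normalization added it called 19. That difference for Clamp was -0.06 with quantile normalization, with and without the replicate block, and -0.17 with the spike-in covariate, where psq stood at 0.02. With 1 array left out it ranged from -0.15 to 1.18 for zld, -0.23 to 0.36 for Clamp, -0.41 to 2.19 and -0.27 to 1.75 for the brighter and dimmer grh probe sets and -0.41 to 0.06 for psq; the Grainyhead target median ranged from -0.12 to 1.19.

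Between letters, the spike-in covariate called 96 probe sets for C against A (29.2% of them higher, against 45.6% otherwise), 0 for C against B and 1283 for any letter. None of the 6 was called for C against A or C against B. B against A called 2 of the 6, zld at 1.11 and the brighter grh probe set at 1.93. The share of all probe sets called for B against A with the covariate is not given here, so the 2 of 6 cannot be set against it. Without the covariate B against A called 0 of 6 and 14.7% of all probe sets. The C minus A differences became 0.88 for zld, 0.55 for Trl, 0.36 for Clamp, 1.25 and 0.68 for grh and 0.02 for psq, the C minus B ones -0.23, 0.65 and -0.67 for zld, Clamp and the brighter grh probe set and 0.18 and 0.07 for the dimmer one and psq, and B minus A for the dimmer one 0.50; every list count for C against A became 0. Without an intensity trend B against A called 1073 probe sets. C against A called 3 of the 6 without the trend, where the share of all probe sets is not given here. With the trend it called 5 of the 6 and 45.6% of all probe sets. zld at -1.0 (adjusted p = 0.0620) and psq at -0.53 missed the threshold, and psq also missed it without the filter (-0.53). Both without the trend and without the filter, 1 Grainyhead target was lower. Quantile normalization gave 0.01 for Trl and -1.35 (adjusted p = 0.0542) for the brighter grh probe set and 1 higher CLAMP-linked gene. Without 60 min B and 90 min B, chosen after the data were seen, C against B called 4825 probe sets and 5 of the 6. B against A then called 1 of the 6 (zld at 0.84), a count given without the share of all probe sets in that fit. All arrays together gave 0 of 6 and 14.7% of all probe sets. In B against A the dimmer grh probe set stood at 0.05. The cause was not tested.

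With 1 array left out, B against A called 483 to 2296 probe sets, C against B 1180 to 4929, C against A 4163 to 5641 and any letter 4323 to 6279. With all 15 arrays the test for any letter called 5450 of 11261 probe sets (48.4%). Of the 6, C against A called 1 to 6, C against B 2 to 5 and any letter 2 to 6. C minus A ran from -1.30 to -0.74 for zld, -0.60 to -0.18 for Trl, -2.19 to -1.13 and -1.98 to -1.12 for grh and -0.64 to -0.42 for psq. C minus B ran from -1.67 to -0.99 for zld, -0.75 to -0.34 for Trl and -1.61 to -0.53 for the dimmer grh probe set, and B minus A for zld from -0.01 to 0.68. Higher Zelda targets numbered 0 to 3 and lower Grainyhead targets 1 to 4. With 3 arrays a group, the intervals are wide, and the dimmer grh probe set was above the array median on 12 of 15 arrays only.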
